A study of Mus musculus with 18 samples.

Results

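The genes *Clec4f*, *Timd4*, *Cd5l*, *Vsig4*, *Cd163* and *Marco*, which in the mouse liver are read as identity genes of Kupffer cells, were followed in the livers of WT and *Apoe* KO mice after chronic-plus-binge ethanol feeding. They were chosen by symbol, as the 6 named Kupffer cell genes among the 15052 genes of the expression table, and all 6 were present in it once. Poly(A) RNA from the livers of 18 mice, 10 to 12 weeks old and labelled female although the study names mice of either sex, was sequenced. The groups were pair-fed WT (n = 4), pair-fed *Apoe* KO (n = 5), EtOH-fed WT (n = 5) and EtOH-fed *Apoe* KO mice (n = 4), and each library came from 1 numbered mouse. Every group first drank control liquid diet for 5 days. The EtOH-fed mice then received liquid diet with 5% ethanol (v/v) for 10 days and 1 ethanol gavage of 5 g/kg on day 11, and their livers were taken 9 h later. The pair-fed mice received an isocaloric diet and a dextrin-maltose gavage of 9 g/kg. Per the study's methods, the *Apoe* KO was a constitutive knockout strain bought from a vendor, so the knockout covered hepatocytes as well as macrophages. By the same methods, the WT mice were bought C57BL/6J mice and not stated to be littermates.

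Kupffer cells are the resident macrophages of the liver and sit in the sinusoids, where they take up bacteria, lipoproteins, aged red cells and dying cells from portal blood. Their identity is held by signals from neighbouring endothelial, stellate and parenchymal cells, among them TGF-β family ligands, Notch ligands and CSF1, acting through transcription factors such as PU.1, LXRα, ID3 and SpiC. In liver injury resident cells can be lost, and monocyte-derived macrophages enter the emptied niche and gain some of these genes with time, *Clec4f* and *Cd5l* sooner than *Timd4*. *Apoe* encodes apolipoprotein E, a ligand through which remnant lipoproteins are cleared and a product of both hepatocytes and macrophages.

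The deposited values were read counts scaled to a common total, 32267493 to 32292618 per mouse, and rounded. The value of a single read could be recovered in 16 of 18 mice and placed the depth between 5.60 and 52.2 M reads. Depth differed between groups, with a median of 11.0 M reads for the ethanol-fed KO group and 39.5 M for the 3 EtOH-fed WT mice where it could be recovered. The fewest estimated reads behind a value of the 6 genes were 19.96, for *Timd4* in pair-fed WT mouse 1. *Apoe* itself was between 611230 and 798431 in the WT mice and between 8586 and 108651 in the *Apoe* KO mice, so each KO library lay below each WT library. The value of 108651 was that of pair-fed *Apoe* KO mouse 4, and the other *Apoe* KO mice reached at most 61572. That mouse was also the highest of its group for *Cd5l*, *Cd163* and *Marco*. 1 library went against its label: in EtOH-fed *Apoe* KO mouse 1, labelled female, *Xist* was 826 against 15227 to 30379 in the other 17 mice, and the Y-linked *Ddx3y* was 1077 against 2 to 118. Results that rest on this library are given with and without it.

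The 6 genes lie apart from each other in the genome (GRCm38, GENCODE vM21). *Clec4f* is at chr6:83644542-83656187 on the minus strand and *Cd163* is on the same chromosome at chr6:124304656-124330527 on the plus strand. *Timd4* is at chr11:46810800-46844332 on the plus strand, *Cd5l* at chr3:87357881-87371073 on the plus strand, *Vsig4* at chrX:96247203-96293438 on the minus strand and *Marco* at chr1:120474538-120505024 on the minus strand. Values counted reads over whole genes. The bases just before the transcription start are shown for 3 genes that hold the core letters GAGGAA of the site bound by PU.1, the macrophage transcription factor encoded by *Spi1*, and for *Cd163*, as 1 of the 3 genes that do not hold them. Capitals mark GAGGAA or its reverse complement TTCCTC. Sequences are 5′ to 3′ on the strand of the gene, taken from the RefSeq promoter table for GRCm38.p6, 250 bases each, at chr3:87357631-87357880 (+) for *Cd5l*, chrX:96293439-96293688 (−) for *Vsig4*, chr1:120505025-120505274 (−) for *Marco* and chr6:124304401-124304650 (+) for *Cd163*.
Cd5l: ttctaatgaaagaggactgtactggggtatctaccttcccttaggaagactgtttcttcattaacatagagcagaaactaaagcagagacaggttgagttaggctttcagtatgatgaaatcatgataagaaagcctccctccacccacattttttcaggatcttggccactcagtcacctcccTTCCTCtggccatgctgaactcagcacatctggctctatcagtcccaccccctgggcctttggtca
Vsig4: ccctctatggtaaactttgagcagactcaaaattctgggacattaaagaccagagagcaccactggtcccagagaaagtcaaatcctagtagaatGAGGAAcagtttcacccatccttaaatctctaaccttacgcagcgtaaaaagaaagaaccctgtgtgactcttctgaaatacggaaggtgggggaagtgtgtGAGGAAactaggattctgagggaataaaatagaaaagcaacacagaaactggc
Marco: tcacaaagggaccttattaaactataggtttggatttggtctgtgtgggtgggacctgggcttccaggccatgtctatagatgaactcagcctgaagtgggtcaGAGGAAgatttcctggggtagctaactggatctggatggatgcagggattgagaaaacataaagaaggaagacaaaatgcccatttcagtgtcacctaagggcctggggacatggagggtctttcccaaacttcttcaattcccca
Cd163: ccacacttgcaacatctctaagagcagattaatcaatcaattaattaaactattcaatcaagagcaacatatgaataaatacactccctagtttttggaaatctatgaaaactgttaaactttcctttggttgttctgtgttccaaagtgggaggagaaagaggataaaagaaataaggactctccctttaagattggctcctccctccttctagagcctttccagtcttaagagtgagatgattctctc
Over the bases before the RefSeq start, GAGGAA on either strand was found in 3 of the 6 genes (*Cd5l*, *Vsig4* and *Marco*) and in 23.3% of 32851 RefSeq promoters. *Vsig4* held 2 copies, beginning 155 and 53 bases before the start. *Clec4f*, *Timd4* and *Cd163* did not hold it in their windows, and genes of both kinds were among those higher in EtOH-fed *Apoe* KO liver. These are matches of letters in short windows and not measured binding sites.

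Per kilobase of exon, *Clec4f* and *Cd5l* were the most abundant of the 6 genes in every group and *Timd4* and *Cd163* the least. In pair-fed WT liver the mean level per kilobase was 1797 ± 351 (SD, n = 4) for *Clec4f* and 1679 ± 436 for *Cd5l*, and the values of these genes overlapped between mice. *Vsig4* followed at 499 ± 135 and *Marco* at 379 ± 219, which also overlapped. *Timd4*, at 144 ± 92.9, and *Cd163*, at 87.7 ± 16.4, overlapped as well, and the only gap between neighbours that left no mice in common was that between *Cd5l* and *Vsig4*. In both *Apoe* KO groups *Cd5l* was first, at 2424 ± 752 per kilobase when pair-fed (n = 5) and 3367 ± 990 when EtOH-fed (n = 4), ahead of *Clec4f* at 1237 ± 320 and 2376 ± 575. The mice of these genes did not overlap in the pair-fed *Apoe* KO group and overlapped in the EtOH-fed one. *Cd163* was last in all 4 groups, and in pair-fed *Apoe* KO liver, at 23.8 ± 8.04 per kilobase, no mouse overlapped *Timd4* at 121 ± 86.0. In EtOH-fed WT liver the order was again *Clec4f*, *Cd5l*, *Vsig4*, *Marco*, *Timd4* and *Cd163*.

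*Clec4f* encodes a C-type lectin of the cell surface that in the mouse is made almost only by Kupffer cells. Its scaled counts were 3492, 4522, 4174 and 5573 in the 4 pair-fed WT mice and 2904, 2490, 2624, 2824 and 4441 in the 5 pair-fed *Apoe* KO mice. They were 1995, 3633, 2146, 2948 and 2833 in the EtOH-fed WT mice and 7486, 4129, 5486 and 6379 in EtOH-fed *Apoe* KO mice 1, 2, 4 and 5. Each EtOH-fed *Apoe* KO mouse was above each EtOH-fed WT mouse. The pair-fed groups overlapped through *Apoe* KO mouse 5 alone, whose 4441 lay well above the other 4 of its group.

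*Timd4* encodes TIM-4, a receptor for phosphatidylserine on dying cells, and marks long-lived resident Kupffer cells. Its scaled counts were 115, 268, 275 and 595 in pair-fed WT mice and 224, 141, 186, 175 and 594 in pair-fed *Apoe* KO mice, so that 1 mouse in each pair-fed group stood far above the others. They were 140, 243, 124, 227 and 152 in EtOH-fed WT mice and 406, 301, 373 and 531 in the ethanol-fed KO group. The EtOH-fed groups did not overlap, whereas the pair-fed groups spanned each other almost whole.

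*Cd5l* encodes a secreted scavenger-receptor-like protein, also called AIM, which protects macrophages from apoptosis and is a known target of LXR. Its scaled counts were 2576, 3277, 3153 and 4670 in pair-fed WT mice and 3738, 3817, 3907, 6764 and 6453 in pair-fed *Apoe* KO mice. They were 1455, 2906, 1510, 2411 and 1801 in EtOH-fed WT mice and 9309, 4738, 5785 and 7590 in EtOH-fed *Apoe* KO mice. The lowest EtOH-fed *Apoe* KO mouse exceeded the highest mouse of both WT groups.

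*Vsig4* encodes CRIg, the complement receptor with which Kupffer cells catch C3-coated particles from the blood. Its scaled counts were 449, 785, 897 and 832 in pair-fed WT mice and 500, 648, 434, 612 and 869 in pair-fed *Apoe* KO mice. They were 437, 956, 350, 676 and 416 in EtOH-fed WT mice and 1300, 785, 1073 and 1434 in the ethanol-fed KO group. The EtOH-fed groups overlapped, because WT mouse 2 at 956 was above *Apoe* KO mouse 2 at 785.

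*Cd163* encodes the scavenger receptor for complexes of haptoglobin and haemoglobin. Its scaled counts were 455, 609, 446 and 405 in pair-fed WT mice and 106, 138, 109, 203 and 94 in pair-fed *Apoe* KO mice, 2 groups far apart. They were 327, 566, 315, 374 and 418 in EtOH-fed WT mice and 453, 212, 233 and 538 in EtOH-fed *Apoe* KO mice. All pair-fed *Apoe* KO mice were below all mice of the other 3 groups, and the EtOH-fed groups overlapped.

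*Marco* encodes a class A scavenger receptor that binds bacteria and particles. Its scaled counts were 438, 557, 569 and 1355 in pair-fed WT mice and 645, 241, 610, 2489 and 2340 in pair-fed *Apoe* KO mice, the latter spread over 3 low and 2 high mice. They were 270, 474, 432, 456 and 583 in EtOH-fed WT mice and 2152, 752, 786 and 1730 in the ethanol-fed KO group. The EtOH-fed groups did not overlap, and the pair-fed *Apoe* KO group covered the range of every other group.

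**Figure D1:**
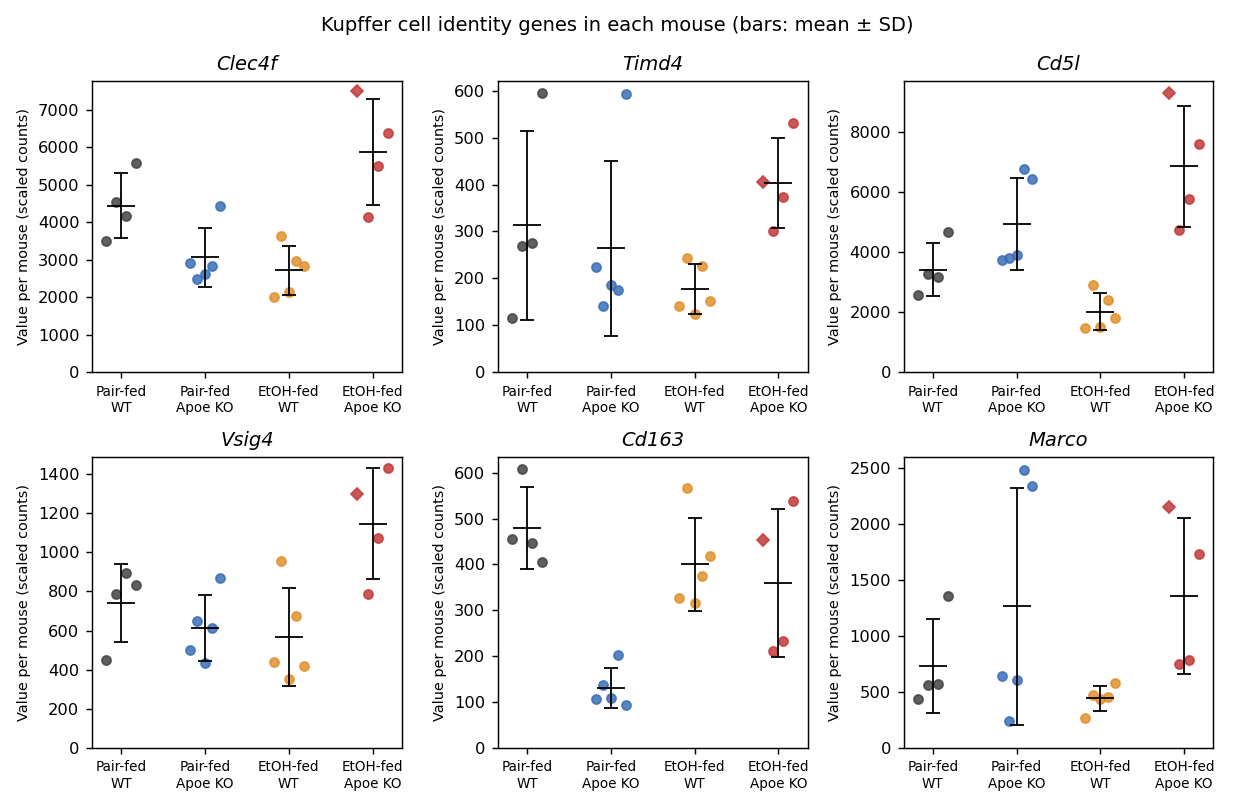
Scaled counts of the 6 genes (y axis, from 0) in each of 18 mice, 1 point per mouse, by group, with the mean as a long bar and the SD as an error bar. The diamond is EtOH-fed *Apoe* KO mouse 1, the library that went against its label. The 4 EtOH-fed *Apoe* KO mice lie above all EtOH-fed WT mice for *Clec4f*, *Timd4*, *Cd5l* and *Marco*, and *Cd163* is lowest in the 5 pair-fed *Apoe* KO mice (94 to 203). The share of all genes whose mice separate in this way was not computed.

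Whether loss of *Apoe* changed Kupffer cell gene expression under ethanol was read from EtOH-fed *Apoe* KO against EtOH-fed WT liver. 5 of the 6 genes were higher in the *Apoe* KO liver and *Cd163* was not, in a comparison in which 4.25% of all genes were called higher and 0.445% lower. *Cd5l* rose most, from 2017 ± 626 (SD, n = 5) to 6856 ± 2016 (n = 4), a log2 fold change of 1.77 (SE 0.22, adjusted p = 0.0012 by limma over all genes). Fold changes here and throughout are on the scale of log2 of the value plus 1, and a gene passed, or was called, at an adjusted p under 0.05. *Marco* rose by 1.5 on the log2 scale (SE 0.30, adjusted p = 0.014), *Timd4* by 1.20 (SE 0.23, adjusted p = 0.0113), *Clec4f* by 1.12 (SE 0.19, adjusted p = 0.00598) and *Vsig4* by 1.08 (SE 0.27, adjusted p = 0.0366). *Cd163* was 400 ± 101 in WT and 359 ± 162 in *Apoe* KO liver, with a log2 fold change of -0.24 and a 95% interval from -0.82 to 0.35 (adjusted p = 0.706). In these whole-liver libraries, fewer or more cells of a type and less or more RNA per cell cannot be told apart.

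The median over all genes in this comparison was 0.107 on the log2 scale, and it was -0.020 when the values were rescaled by median-of-ratios size factors, which brought *Cd5l* to 1.64, *Marco* to 1.37, *Timd4* to 1.07, *Clec4f* to 0.99 and *Vsig4* to 0.95. *Vsig4* then missed the threshold (adjusted p = 0.0692), and of all genes called, 380 were higher and 126 lower in place of 639 and 67. Without EtOH-fed *Apoe* KO mouse 1, *Cd5l* was 1.61 (adjusted p = 0.00576), *Marco* 1.23 (adjusted p = 0.035), *Timd4* 1.19 (adjusted p = 0.0296) and *Clec4f* 0.99 (adjusted p = 0.0194), whereas *Vsig4*, at 1.01, no longer passed (adjusted p = 0.0846). That library was the highest of its group for *Clec4f*, *Cd5l* and *Marco* and, at 45.9 M reads, the deepest. The call of *Vsig4* was lost when any of 6 mice was left out, which were *Apoe* KO mice 1, 4 and 5 and WT mice 1, 3 and 5, and that of *Marco* without *Apoe* KO mouse 5 (1.33, adjusted p = 0.0511). With all 4 groups in 1 fit, which shares 1 estimate of the spread, the calls of *Timd4* (adjusted p = 0.0698) and *Marco* (adjusted p = 0.092) were lost, and those of *Cd5l*, *Clec4f* and *Vsig4* were kept.

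Whether the genotypes differed without ethanol was read from pair-fed *Apoe* KO against pair-fed WT liver. Here *Cd163* alone of the 6 genes passed, and it was lower in *Apoe* KO liver, where 0.864% of all genes were called lower and 0.87% higher. *Cd163* averaged 130 ± 43.9 (n = 5) in *Apoe* KO and 479 ± 89.5 (n = 4) in WT liver, a fold of 0.266 and a log2 fold change of -1.91 (SE 0.22, 95% interval from -2.38 to -1.45, adjusted p = 0.000541). With any 1 mouse left out it ranged from -2.09 to -1.79, with an adjusted p of at most 0.00438. The other genes did not pass. *Clec4f* was -0.55 (95% interval from -0.90 to -0.20, adjusted p = 0.0965), *Timd4* -0.23 (from -1.16 to 0.70), *Vsig4* -0.27 (from -0.73 to 0.20), *Cd5l* 0.51 (from 0.07 to 0.95, adjusted p = 0.187) and *Marco* 0.43 (from -0.78 to 1.64). Without pair-fed *Apoe* KO mouse 5, the high mouse for *Clec4f*, that gene was -0.69 and passed (adjusted p = 0.0155). *Marco* was 0.06 without pair-fed *Apoe* KO mouse 4 and 0.08 without mouse 5, the 2 mice in which it was highest.

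In WT mice *Clec4f* and *Cd5l* fell with ethanol feeding, and the other 4 genes did not pass. The log2 differences of the 6 genes lay between -0.78 and -0.27, beside 6.52% of all genes called lower and 6.19% higher. *Clec4f* went from 4440 ± 868 (n = 4) to 2711 ± 662 (n = 5), a log2 fold change of -0.73 (SE 0.18, adjusted p = 0.0177), and *Cd5l* from 3419 ± 888 to 2017 ± 626, a log2 fold change of -0.78 (SE 0.21, adjusted p = 0.0284). *Timd4* was -0.64 (95% interval from -1.43 to 0.16), *Marco* -0.61 (from -1.24 to 0.01), *Vsig4* -0.44 (from -1.04 to 0.16) and *Cd163* -0.27 (from -0.67 to 0.12), none of which passed. The groups overlapped for each of the 6 genes. The call of *Clec4f* was lost without pair-fed WT mouse 2 (adjusted p = 0.0514) or 4 (adjusted p = 0.0609), and that of *Cd5l* without either of these (0.0669 and 0.0933) or without EtOH-fed WT mouse 1 (0.0632) or 3 (0.0612), all adjusted p by limma. *Timd4* reached -1.04 and passed without pair-fed WT mouse 1 (adjusted p = 0.0458), in which it was lowest and the depth was smallest.

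In *Apoe* KO mice *Cd163*, *Clec4f* and *Vsig4* rose with ethanol feeding. The log2 differences of the 6 genes lay between 0.45 and 1.40, in a comparison in which 16.3% of all genes were called higher and 6.92% lower. *Cd163* rose from 130 ± 43.9 (n = 5) to 359 ± 162 (n = 4), a log2 fold change of 1.40 (SE 0.30, adjusted p = 0.0049), and the groups did not overlap. *Clec4f* rose from 3057 ± 791 to 5870 ± 1420 (log2 fold change 0.94, SE 0.18, adjusted p = 0.00254) and *Vsig4* from 613 ± 167 to 1148 ± 284 (0.91, SE 0.20, adjusted p = 0.00638). *Timd4* at 0.79 (adjusted p = 0.106), *Cd5l* at 0.48 (adjusted p = 0.132) and *Marco* at 0.45 (adjusted p = 0.615) did not pass, although without pair-fed *Apoe* KO mouse 5 *Timd4* was 1.13 and passed (adjusted p = 0.00273). Without EtOH-fed *Apoe* KO mouse 1, *Cd163* was 1.25 (adjusted p = 0.0176), *Clec4f* 0.81 (adjusted p = 0.00844) and *Vsig4* 0.84 (adjusted p = 0.0206). Over all genes the median was 0.126, against 0.002 after rescaling, which left *Cd163* at 1.27, *Clec4f* at 0.82 and *Vsig4* at 0.78, all still past the threshold, and turned the count of genes from 2446 higher and 1042 lower into 1656 and 1607.

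**Figure D2:**
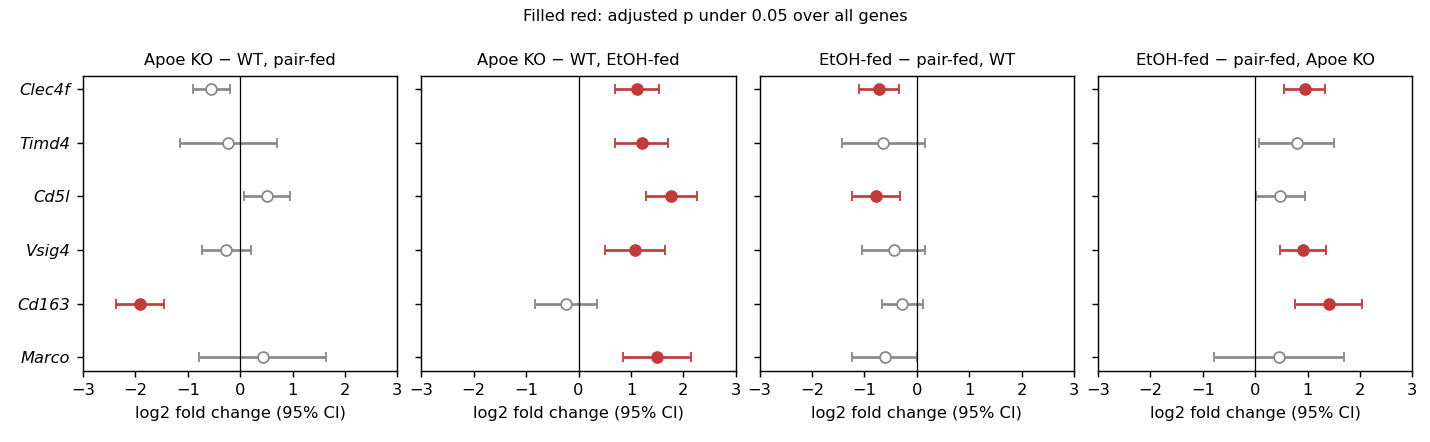
Log2 fold change of each of the 6 genes (x axis, on log2 of value plus 1) in 4 comparisons, with 95% intervals. Filled red points have an adjusted p under 0.05 over all genes. In EtOH-fed liver *Cd5l*, *Marco*, *Timd4*, *Clec4f* and *Vsig4* are filled on the right and *Cd163* lies near 0, whereas in pair-fed liver *Cd163* alone is filled, at -1.91.

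The difference between the genotypes in their response to ethanol was tested directly, as the interaction of diet and genotype over all 18 mice. *Cd163*, *Clec4f* and *Cd5l* passed, each with a positive interaction, beside 2.6% of all genes with a positive and 0.239% with a negative one. The interaction was 1.67 on the log2 scale for *Clec4f* (SE 0.28, adjusted p = 0.00478), 1.67 for *Cd163* (SE 0.37, adjusted p = 0.019) and 1.26 for *Cd5l* (SE 0.34, adjusted p = 0.0462). *Vsig4*, at 1.35 (95% interval from 0.56 to 2.14, adjusted p = 0.0598), *Timd4*, at 1.43 (from 0.28 to 2.58), and *Marco*, at 1.07 (from -0.46 to 2.60), did not pass. *Clec4f* and *Cd163* reached the same size by different routes. *Clec4f* was lower with ethanol in WT and higher with ethanol in *Apoe* KO liver, whereas *Cd163* was 479 and 400 on average in WT liver without and with ethanol, a difference that did not pass, and rose from its low pair-fed level in *Apoe* KO liver. Without EtOH-fed *Apoe* KO mouse 1 *Clec4f* was 1.54 (adjusted p = 0.00508) and *Cd163* 1.52 (adjusted p = 0.0342), and *Cd5l*, at 1.10, did not pass (adjusted p = 0.083). The call of *Cd5l* was lost without any of 12 of the 18 mice, that library among them. With mouse number as a block, which drops mice whose number the groups do not share, neither *Cd163* nor *Cd5l* passed. After rescaling *Cd5l* was 1.12 and did not pass either (adjusted p = 0.0781), and 294 genes with a positive and 84 with a negative interaction were called, in place of 392 and 36.

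Because *Clec4f* is made almost only by Kupffer cells, the other 5 genes were also expressed per unit of *Clec4f* in each mouse, a comparison chosen after the values were seen. *Clec4f* itself changed, by 1.12 between EtOH-fed genotypes and with ethanol by -0.73 in WT and 0.94 in *Apoe* KO liver. *Cd163* itself differed by -0.24 between EtOH-fed genotypes and did not pass, so its ratio there moved mostly with *Clec4f*. A ratio can thus differ through either gene. *Cd163* per *Clec4f* was 0.0426 to 0.0845 in EtOH-fed *Apoe* KO and 0.127 to 0.164 in EtOH-fed WT liver, and 0.0214 to 0.0722 in pair-fed *Apoe* KO and 0.0728 to 0.135 in pair-fed WT liver. The log2 difference between genotypes was thus -1.35 with ethanol and -1.36 without, and in both diets the groups did not overlap. *Cd5l* per *Clec4f* went the other way, at 1.05 to 1.24 in EtOH-fed *Apoe* KO and 0.636 to 0.818 in EtOH-fed WT liver, and at 1.29 to 2.39 and 0.725 to 0.838 when pair-fed. Its log2 difference between genotypes was 0.66 with ethanol and 1.06 without, and within *Apoe* KO liver the log2 difference between EtOH-fed and pair-fed mice was -0.46. The two-sided exact permutation test gave p = 0.0159 for each of these 5 differences, the smallest that groups of 4 and 5 mice allow, and an adjusted p of 0.0635 over the 20 ratios compared, so none passed. For *Timd4* and *Vsig4* per *Clec4f* the differences in EtOH-fed liver were 0.09 and -0.03 (exact adjusted p = 0.762 and 0.905), and for *Marco* 0.38 (exact adjusted p = 0.476).

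**Figure D3:**
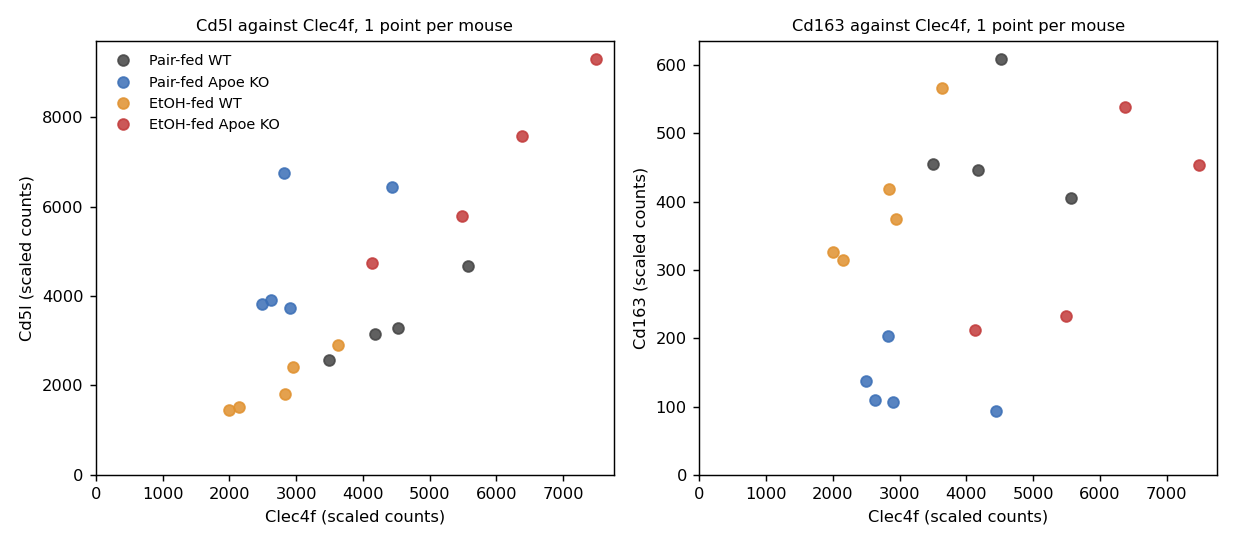
Scaled counts of *Cd5l* (left) and *Cd163* (right) against *Clec4f* (x axis), 1 point per mouse, coloured by group, axes from 0. Per unit of *Clec4f*, mice of both *Apoe* KO groups lie above WT mice for *Cd5l* (ratios 1.05 to 2.39 against 0.636 to 0.838). For *Cd163* per unit of *Clec4f*, *Apoe* KO mice lie below the WT mice of the same diet. Across diets these *Cd163* ratios overlap (0.0214 to 0.0845 in *Apoe* KO and 0.0728 to 0.164 in WT mice). The EtOH-fed groups share no level of *Clec4f* (4129 to 7486 in *Apoe* KO and 1995 to 3633 in WT mice).

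Over all 18 mice, *Cd163* was less like the other 5 genes than they were like each other. These coefficients include the differences between group means already given. As a measure of likeness, the Pearson coefficient of log2 values over the 18 mice ran from 0.54 (*Vsig4* with *Marco*) to 0.88 (*Clec4f* with *Vsig4*) among the other 5 genes, and from -0.22 (*Cd5l*) to 0.34 (*Clec4f*) between *Cd163* and each of them. With the group means taken away, the other 5 genes ran from 0.39 to 0.87, and *Cd163* from near 0 with *Timd4* to 0.55 with *Cd5l*. The coefficients are descriptions without a test, since mice of a group share genotype and diet and all mice share 1 scaling.

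**Figure D4:**
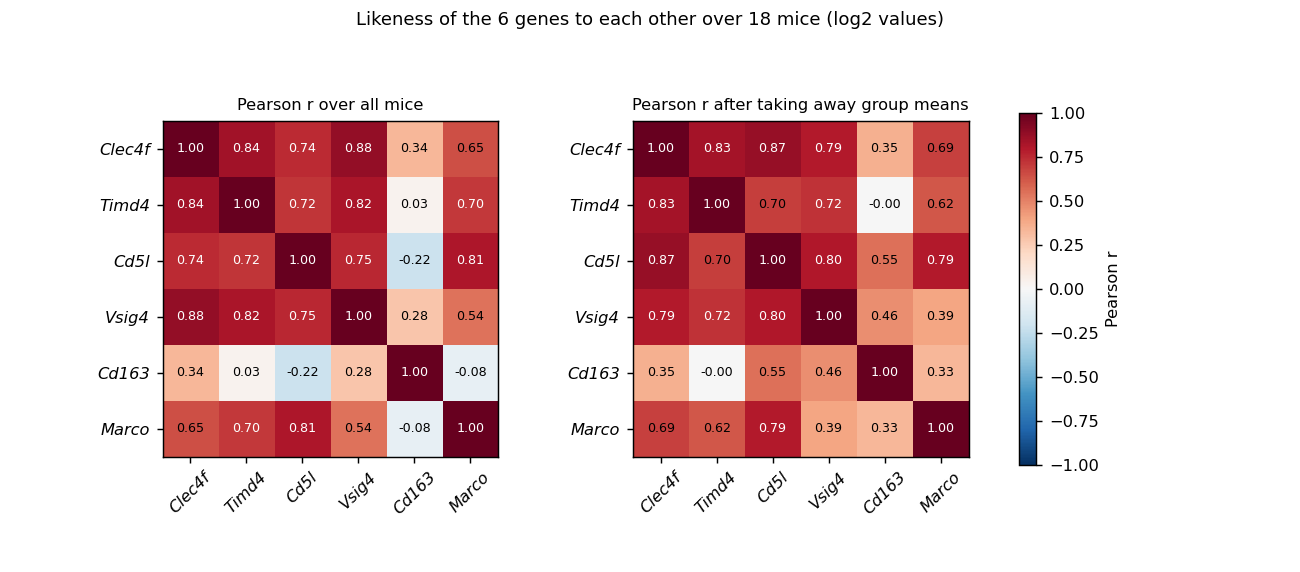
Pearson coefficients between the 6 genes on log2 values over 18 mice, for the values as they are (left) and after each group's mean was taken away (right), with colour from -1 (blue) to 1 (red). The row of *Cd163* is pale on the left, between -0.22 and 0.34, and rises to at most 0.55 on the right.

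Among the genes outside the list, those most like *Clec4f* over the 18 mice were *C1qa* (0.961), *C1qc* (0.945) and *Csf1r* (0.937), which encode complement C1q chains and the CSF1 receptor. Most like *Cd5l* were *Themis2* (0.935), *Clec12a* (0.926) and *Lyz2* (0.916), and most like *Vsig4* were *Sdc3* (0.899), *Siglec1* (0.887) and *Tmem86a* (0.883). *Timd4* was most like *Trpm2* (0.877), *Epsti1* (0.869) and *Cd53* (0.868). *Marco* was most like *Siglece* at 0.964, which stayed at 0.962 without the group means, followed by *Fyb1* (0.842) and *Gngt2* (0.841). *Cd163* was most like *Vipr1* (0.835), *Clec4g* (0.823) and *Pcdh12* (0.803), which were 0.581, 0.643 and 0.288 without the group means. *Clec4g* is a lectin of sinusoidal endothelial cells.

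The other Kupffer cell genes were read beside the 6. Of 12 further genes (*Folr2*, *Fcna*, *C6*, *Clec1b*, *Kcna2*, *Slc16a9*, *Hpgd*, *Pcolce2*, *Il18bp*, *Gfra2*, *Xlr* and *Cd207*), 7 were higher (4.25% of all genes) and none lower in EtOH-fed *Apoe* KO against EtOH-fed WT liver, with a median log2 difference of 1.02 against 0.107 over all genes. *Kcna2* rose by 2.11 (adjusted p = 0.000399), *Il18bp*, a decoy for interleukin 18, by 1.09 (adjusted p = 0.00211), *C6* by 0.98 (adjusted p = 0.00307), *Clec1b* by 0.91 (adjusted p = 0.00951) and *Pcolce2* by 1.34 (adjusted p = 0.0215). Without EtOH-fed *Apoe* KO mouse 1, 4 of the 12 passed, and after rescaling 5. In pair-fed liver, 1 of the 12 passed, *Fcna*, which encodes a ficolin of Kupffer cells and was lower in *Apoe* KO liver (1017 in WT and 613 in *Apoe* KO mice on average, log2 fold change -0.77, adjusted p = 0.0393). Between the pair-fed groups 0.864% of all genes were called lower. *Fcna* rose with ethanol in *Apoe* KO liver (0.89, adjusted p = 0.0286). In WT liver 5 of the 12 were lower with ethanol, among them *Kcna2* (-1.43, adjusted p = 0.00211) and *Il18bp* (-0.78, adjusted p = 0.00492), beside 6.52% of all genes. In *Apoe* KO liver 2 of the 12, *Fcna* and *Clec1b*, were higher, a share near the 16.3% of all genes, and neither passed without EtOH-fed *Apoe* KO mouse 1 or after rescaling. *Hpgd* was lower (-0.87, adjusted p = 6.26e-05), beside 6.92% of all genes. *Xlr* was at 0 in some mice of both pair-fed groups.

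Of 9 transcription factors tied to Kupffer cells, *Spi1* (1.34, adjusted p = 0.00531) and *Irf8* (0.76, adjusted p = 0.0222) exceeded WT in the ethanol-fed KO group. Of all genes, 4.25% were called higher in that comparison. None of the 9 passed in pair-fed liver, where 0.87% of all genes were called higher and 0.864% lower. *Nr1h3*, which encodes LXRα, was 3657 and 3774 on average in the EtOH-fed groups (log2 difference -0.06, adjusted p = 0.847), and for *Id3* the 95% interval of the difference ran from -0.64 to 0.64. Both are whole-liver values, and their levels in Kupffer cells were not measured. With ethanol in *Apoe* KO liver, 4 of the 9 rose (16.3% of all genes), *Spi1*, *Zeb2*, *Id3* and *Maf*. After rescaling 2 of the 9 were still called higher, *Spi1* and *Zeb2*. Without EtOH-fed *Apoe* KO mouse 1, 4 were called higher, with *Rbpj* in place of *Id3*. Of the 7 niche signals (*Csf1*, *Il34*, *Dll1*, *Dll4*, *Gdf2*, *Bmp10* and *Tgfb1*), none differed between the EtOH-fed or the pair-fed groups past the threshold. *Gdf2*, which encodes BMP9, rose with ethanol in WT (0.74, adjusted p = 0.00103) and in *Apoe* KO liver (0.96, adjusted p = 0.000212), and *Tgfb1* had a positive interaction (1.05, adjusted p = 0.0156).

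The ligands and downstream steps of the receptors were read in 9 genes of haemoglobin, iron and complement handling. *Hmox1*, the haem-degrading enzyme downstream of CD163, averaged 658 (WT) and 1462 (*Apoe* KO) when pair-fed, and 3819 and 10461 after ethanol. It rose with ethanol by 2.44 in WT (adjusted p = 0.000209) and by 2.91 in *Apoe* KO liver (adjusted p = 0.000103), and exceeded WT by 1.49 in the ethanol-fed KO group (adjusted p = 0.0194). The other 8 genes, *Hp* and *C3* among them, did not pass between genotypes in either diet.

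Genes of macrophages at large were also higher in EtOH-fed *Apoe* KO liver. Of 10 pan-macrophage genes, 8 were higher in EtOH-fed *Apoe* KO liver (4.25% of all genes), with a median of 1.38, and the same number passed without EtOH-fed *Apoe* KO mouse 1. *Adgre1*, which encodes F4/80, rose by 1.54 (adjusted p = 0.0104), *Cd68* by 1.35 (adjusted p = 0.000725), *Csf1r* by 1.04 (adjusted p = 0.00816) and *C1qb* by 1.41 (adjusted p = 0.000968), while *Aif1* (0.78, adjusted p = 0.0538) and *Mertk* (0.30, adjusted p = 0.278) did not pass. None of the 10 passed in pair-fed liver, 5 were lower with ethanol in WT liver (6.52% of all genes), and 6 were higher with ethanol in *Apoe* KO liver (16.3% of all genes). The summed scaled counts of the 10 ran from 7149 to 11136 in EtOH-fed WT and from 15441 to 24423 in EtOH-fed *Apoe* KO mice.

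Of 13 genes of infiltrating and lipid-associated macrophages, 6 were higher in EtOH-fed *Apoe* KO liver (4.25% of all genes) and none lower. *Trem2*, a lipid receptor of such cells, rose from 46.4 ± 10.6 (n = 5) to 184 ± 69.6 (n = 4), a log2 fold change of 1.91 (adjusted p = 0.00363), *Gpnmb* from 23 ± 9.75 to 147 ± 125 (2.36, adjusted p = 0.0147), and *Mmp12* by 2.24 (adjusted p = 0.00152). *Spp1* did not pass (2122 ± 650 and 3621 ± 2037, log2 difference 0.68, adjusted p = 0.224), nor did the monocyte gene *Ccr2* (0.34, adjusted p = 0.593), and *Ly6c2* was 1.25 (adjusted p = 0.0643). Without EtOH-fed *Apoe* KO mouse 1, 6 of the 13 were again called higher, with *Ly6c2* in place of *Cx3cr1*. In pair-fed liver *Gpnmb* was already higher in *Apoe* KO mice (2.03, adjusted p = 0.0353) and *Fabp5* lower (-2.06, adjusted p = 0.0267). Between these groups 0.87% of all genes were called higher and 0.864% lower. The *Gpnmb* values of the pair-fed WT mice rested on only 2.95 to 16.2 estimated reads. The part of infiltrating cells in the higher values of the 6 Kupffer cell genes was not tested.

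Markers of other liver cells were read for the same comparisons. None of 8 sinusoidal endothelial genes passed between the EtOH-fed groups, in which their summed counts ran from 10096 to 14337 in WT and from 9044 to 14800 in *Apoe* KO mice. In pair-fed liver the sums ran from 7939 to 9021 in WT and from 5307 to 7606 in *Apoe* KO mice, and *Clec4g* (-0.66, adjusted p = 0.00998) and *Fcgr2b* (-0.63, adjusted p = 0.0318) were lower in *Apoe* KO liver. Of all genes, 0.864% were called lower between the pair-fed groups. With ethanol 5 of the 8 rose in WT liver (6.19% of all genes) and 7 in *Apoe* KO liver (16.3%), among them *Gpr182* and *Lyve1*. *Cd163* was low in the group with the lowest endothelial sums, and both were higher with ethanol in *Apoe* KO liver, but in WT liver the sums were higher with ethanol and *Cd163* was not (479 and 400 on average, log2 difference -0.27). The part of endothelial cells in its values was not tested. Of 9 neutrophil genes, 3 were in the table and none passed in any comparison. Among them, *S100a8* and *S100a9* were low, at 8 to 110 and 14 to 155 scaled counts in a mouse, so a difference could be missed. The study reported more neutrophils by staining, and higher neutrophil degranulation genes, in EtOH-fed *Apoe* KO liver. None of 6 stellate or 6 hepatocyte genes passed between the EtOH-fed groups.

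**Figure D5:**
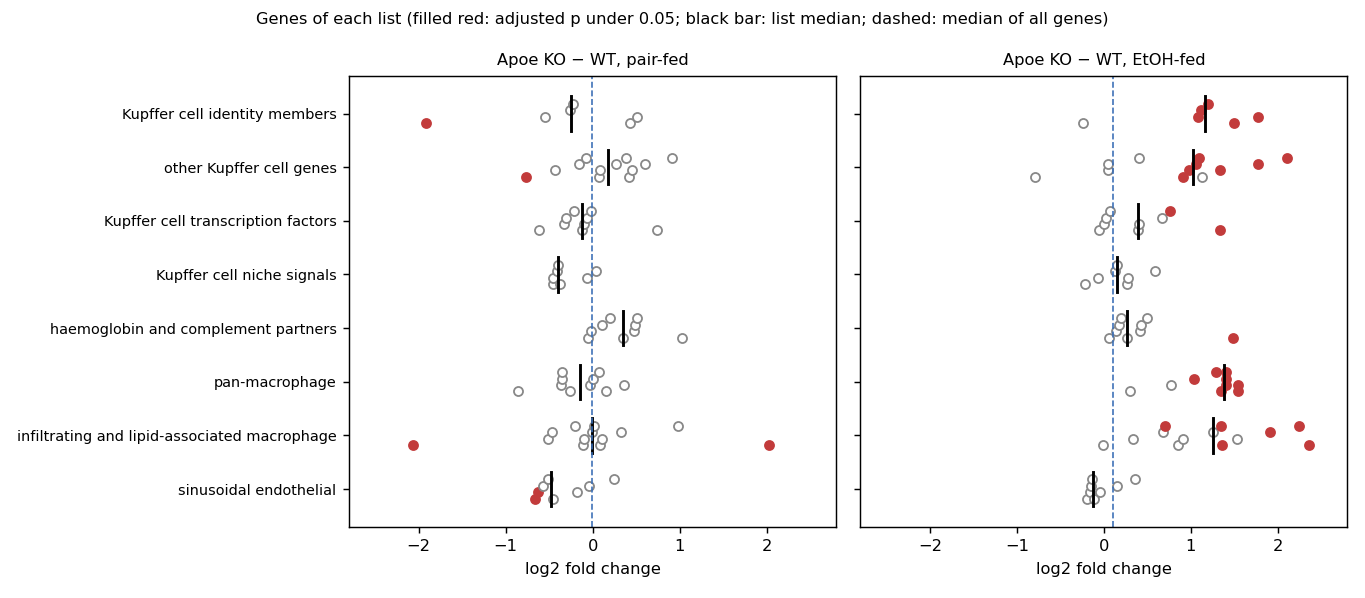
Log2 fold change (x axis) of every gene of 8 lists (rows), *Apoe* KO against WT, in pair-fed (left) and EtOH-fed liver (right). Filled red points have an adjusted p under 0.05 over all genes, black bars are list medians and the dashed line is the median of all genes (0.107 in EtOH-fed liver). In EtOH-fed liver the medians of the 6 Kupffer cell genes (1.16), other Kupffer cell genes (1.02), pan-macrophage (1.38) and infiltrating macrophage genes (1.25) lie to the right and that of the endothelial genes at -0.12.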

How the data were processed

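Liver poly(A) RNA-seq of 18 mice in 4 groups was analysed, grouped by genotype and diet as the labels give them. The authors deposited 1 table, in which the value columns are read counts brought by the authors to 1 shared library total and then rounded. These deposited values are a score that the authors made by scaling counts, not raw counts. Their log2 fold change and p-value columns, also deposited by the authors, hold their own comparison and were not used. The submitters' processing notes name FastQC, Trimmomatic, HISAT2, SAMtools, featureCounts, DESeq2 and GRCm38; versions, annotation, strand setting and scaling formula are not given in the sources used here. The table held 15247 lines; 195 repeat lines of 56 genes were left out, leaving 15052 genes, each with a mean of at least 12.1, and 15040 of these were placed in GENCODE vM21 for positions and exon length.

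Depth was estimated from the step between low values, which is what 1 read is worth. Groups were compared with limma 3.58.1 in R 4.3.3 (intensity trend) on log2(value + 1), so that folds of low genes are understated, and p-values were adjusted over all 15052 genes by Benjamini-Hochberg; called means an adjusted p under 0.05. Each comparison used its 2 groups, which share control mice with other comparisons, and the interaction used all 18 mice. Where nothing states separate cages or cohorts, p-values measure the spread between these mice. Ratios to *Clec4f* were compared with the two-sided exact permutation test (scipy 1.17.1). The fits were tested on simulated data. Values of 1 mouse carry counting error that the depth sets, and no interval was drawn from it.

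The members and gene lists were chosen with earlier results of these data known. All 6 members were named; from each list up to 5 called genes with the smallest adjusted p were named, with *Trem2*, *Gpnmb*, *Spp1*, *Adgre1*, *Csf1r* and *Cd68* in any case and, for likeness, the 3 closest genes per member. *Nr1h3*, *Id3*, *Hp*, *C3*, *Aif1*, *Mertk*, *Ccr2* and *Ly6c2*, which did not pass between genotypes in the main fits, were named for their known roles after their values were seen. *Cx3cr1* and *Rbpj* were named because their calls changed without EtOH-fed *Apoe* KO mouse 1. A result of the transcription factor list is not reported here. Alternatives were median-of-ratios scaling, a mean value of at least 50, pseudocounts of 0.1 and 10, all groups in 1 fit, mouse number as a block and leaving out each mouse. List counts under other scaling and without the mouse that went against its label were added after seeing the data, as were the ratios. The main fits did not pair mice by number, because no comparison had a correlation above 0.1 in every same-numbered pair. This rule cannot show that pairing is absent.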

Additional observations from a re-analysis of the deposited data

Results flagged for a closer look

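The gap between pair-fed *Apoe* KO mouse 5 and the next mouse of its group for *Clec4f* (scaled counts 4441 against 2904) was 0.734 of the group's range, above the limit for 5 values. Gap and range were taken on log2 of the value plus 1. It was the only one of 48 groups of values (12 genes in 4 groups) past its limit, where chance passes about 1 in 20. *Timd4* was also highest of its group in that mouse.

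The response to ethanol differed between the genotypes, by the interaction term over all 18 mice (limma, adjusted over all genes), for *Clec4f* (1.67, adjusted p = 0.00478), *Cd163* (1.67, adjusted p = 0.019) and *Cd5l* (1.26, adjusted p = 0.0462). The call of *Cd5l* was lost without any of 12 of the 18 mice. The response also differed for the macrophage genes *Csf1r* (1.39, adjusted p = 0.0116) and *Cd68* (1.38, adjusted p = 0.0117). Of the 10 pan-macrophage genes, 8 had a called positive interaction, with a median of 1.43, beside 2.6% of all genes. After rescaling 7 of them did, and 7 without EtOH-fed *Apoe* KO mouse 1.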

How the results depend on the processing

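Of 174 values of the 6 genes recomputed under other scaling, filter, pseudocount, fit or block, 165 kept their direction and side of the threshold, 8 lost their call and 1 gained it. Under median-of-ratios scaling, *Vsig4* between the EtOH-fed groups (0.95) and the interaction of *Cd5l* (1.12) lost their calls, and so did the latter with a pseudocount of 0.1 (1.26, adjusted p = 0.0521). With all 4 groups in 1 fit, *Timd4* (1.20, adjusted p = 0.0698) and *Marco* (1.5, adjusted p = 0.092) between the EtOH-fed groups did. Whether mouse numbers pair the mice is not settled. Between the EtOH-fed groups same-number coefficients ran from -0.0242 to 0.230, with a mean of 0.135 against -0.033 for other numbers. There 3 of 4 mice were closest to their own number, and 1 of 4 in each other comparison. With mouse number as a block, which drops mice whose number the groups do not share, 1083 in place of 706 genes were called between the EtOH-fed groups and 392 in place of 261 between the pair-fed groups, *Clec4f* between the pair-fed groups passed (-0.69), and *Vsig4* between the EtOH-fed groups (0.93) and the interactions of *Cd5l* (1.12) and *Cd163* (1.20, adjusted p = 0.148) did not. The causes were not tested. Of 324 values with 1 mouse left out, 289 kept direction and call, 25 lost the call, 8 gained it and 2 uncalled ones changed sign. Leaving out 1 mouse, called genes ranged from 327 to 620 between EtOH-fed genotypes (327 without WT mouse 1, 353 and 408 without *Apoe* KO mice 4 and 5) and from 73 to 670 between pair-fed genotypes (73, 670 and 91 without WT mice 2, 3 and 4, and 119, 166, 127 and 452 without *Apoe* KO mice 1, 3, 4 and 5). They ranged from 1186 to 1904 for ethanol in WT mice (1186 and 1231 without pair-fed mice 2 and 4) and from 167 to 561 for the interaction (167 and 241 without pair-fed WT mice 4 and 2, 266 without pair-fed *Apoe* KO mouse 3, 228 without EtOH-fed WT mouse 1, 241 and 252 without EtOH-fed *Apoe* KO mice 4 and 5). Between EtOH-fed genotypes *Vsig4* ranged from 0.93 to 1.30 and *Marco* from 1.23 to 1.73; between pair-fed genotypes *Clec4f* from -0.69 to -0.44 and *Timd4* from -0.63 to 0.16 (0.16 without WT mouse 4). With ethanol in WT, *Clec4f* ranged from -0.84 to -0.61, *Timd4* from -1.04 to -0.25 and *Cd5l* from -0.93 to -0.62, and with ethanol in *Apoe* KO mice *Timd4* from 0.62 to 1.13 and *Marco* from -0.0148 (without pair-fed mouse 2) to 0.83. The interactions ranged from 1.04 to 1.83 for *Timd4*, 1.10 to 1.42 for *Cd5l* (call lost without any of 12 mice) and 1.20 to 1.57 for *Vsig4* (gained without any of 4). Uncalled ratios to *Clec4f* that changed sign with 1 mouse left out ranged, for *Timd4*, from -0.00458 to 0.20 between EtOH-fed genotypes, from -0.21 to 0.36 with ethanol in WT and from -0.26 to 0.0513 with ethanol in *Apoe* KO mice, and for *Vsig4* from -0.14 to 0.0662 and, with ethanol in *Apoe* KO mice, from -0.10 to 0.0654. Of the 6 genes, depth limits *Timd4* and *Cd163* most, with as few as 19.96 and 28.0 estimated reads in a mouse.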
